A study of Homo sapiens with 3 samples.

Results

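Binding of RBPJ and L3MBTL3 to chromatin was examined at 8 genes of cell proliferation, namely CCND1, MYC, CDKN1A, CCNE2, CCNB1, CDC20, PCNA and MCM7. They were chosen by name from 19748 protein-coding genes, and every deposited peak with its summit within 100 kb of one of their transcription start sites (TSS) was taken, which gave 15 of 2926 RBPJ peaks and 2 of 444 L3MBTL3 peaks. Chromatin immunoprecipitation followed by sequencing (ChIP-seq) had been done in MDA-MB-231, a human breast cancer cell line of mesenchymal character, grown in serum-containing medium with no treatment or genetic change given in the labels. RBPJ (also named CBF1) and L3MBTL3 had 1 library each, and an input DNA library was not analysed here. The aligned depth stated in the labels is 30 to 40 megareads per sample, and peaks carry no read counts, so the error of a single value is unknown and no test between genes was possible. Binding says nothing of RNA level, and cell identity was not measured.

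RBPJ is the DNA-binding factor of the Notch pathway: without signal it recruits corepressors to target genes, and with signal it binds the cleaved Notch receptor and activates them. L3MBTL3 reads methylated lysines, and by its title the series concerned repression of Notch targets through CBF1, L3MBTL3 and the histone demethylase KDM1A. CCND1 encodes cyclin D1, which drives CDK4 and CDK6 in G1, MYC encodes a growth-promoting transcription factor, and CDKN1A encodes the CDK inhibitor p21. These are known as direct Notch targets from other systems: CCND1 in transformed rodent kidney cells, MYC in T-cell leukaemia and mouse mammary tumours, CDKN1A in mouse keratinocytes. The remaining 5 genes belong to the general cell cycle machinery: CCNE2 (cyclin E2) acts in S-phase entry, CCNB1 (cyclin B1) in mitotic entry, CDC20 in anaphase, PCNA is the DNA polymerase clamp, and MCM7 is a subunit of the replicative helicase.

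Sequences of peaks at 6 of the 8 genes are given first, since they carry the words by which the 2 gene groups are described, and those of MYC and CCNE2 are not printed. They were read from hg19 on the strand of the gene, 5′ to 3′, with the words named beside each in capitals. In the CCND1 upstream sequences, the distal one (chr11:69451429-69451559, plus strand) has the E-box CACGTG and 2 copies of the TEAD word GGAATG in capitals, and the proximal one (chr11:69453240-69453403, plus strand) has the reverse complement of the high-affinity RBPJ word TGTGGGAA. A further word of the proximal one, TTTGAA on the minus strand near its end, is left in lower case.
CCND1 distal: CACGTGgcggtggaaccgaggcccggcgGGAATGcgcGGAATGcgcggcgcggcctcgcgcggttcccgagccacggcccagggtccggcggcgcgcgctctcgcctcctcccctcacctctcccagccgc
CCND1 proximal: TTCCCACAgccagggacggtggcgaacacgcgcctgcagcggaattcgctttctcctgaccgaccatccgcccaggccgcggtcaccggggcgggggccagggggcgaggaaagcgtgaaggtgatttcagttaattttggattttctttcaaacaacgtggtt
The summit window in the CDKN1A gene (chr6:36648065-36648265, plus strand) has the reverse complement of the RBPJ core TGGGAA in capitals, beside a run of 38 alternating bases of g and t.
CDKN1A intron: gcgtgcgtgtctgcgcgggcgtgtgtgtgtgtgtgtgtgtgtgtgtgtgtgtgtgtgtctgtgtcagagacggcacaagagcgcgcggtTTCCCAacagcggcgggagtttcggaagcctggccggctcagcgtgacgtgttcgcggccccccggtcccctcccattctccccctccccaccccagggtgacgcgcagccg
From the general cell cycle genes, the CCNB1 promoter (chr5:68462668-68462802, plus strand) is shown with the CCAAT box (as ATTGG) and the E-box in capitals, and the peak downstream of CDC20 (chr1:43833837-43833936, plus strand) with the reverse complement of the RBPJ core.
CCNB1 promoter: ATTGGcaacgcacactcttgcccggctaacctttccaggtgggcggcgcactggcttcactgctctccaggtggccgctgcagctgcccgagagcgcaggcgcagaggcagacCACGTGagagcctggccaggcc
CDC20 downstream: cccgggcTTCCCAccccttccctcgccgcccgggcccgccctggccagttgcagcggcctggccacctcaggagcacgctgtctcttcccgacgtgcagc
The PCNA promoter (chr20:5107289-5107420, minus strand) has 3 CCAAT boxes and, as the reverse complement, the E2F word TTTCCCGC in capitals, and 30 bases at the MCM7 start (chr7:99698434-99698463, minus strand) have 1 CCAAT box.
PCNA promoter: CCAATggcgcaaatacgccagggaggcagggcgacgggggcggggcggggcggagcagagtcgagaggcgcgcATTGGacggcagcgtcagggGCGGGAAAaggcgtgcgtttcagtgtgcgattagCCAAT
MCM7 start: gctgcgcgccgggATTGGccgtttgaggcc

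All 8 genes had an RBPJ summit within 100 kb of a TSS, against 31.0% of all protein-coding genes, and all 8 had one within 10 kb, against 11.3% of all genes and 14.9% of those with a CpG-rich TSS (observed over expected CpG above 0.6 in 1 kb). All 8 have such a TSS, with ratios of 0.647 to 0.975, as do 13832 of the 19748 genes. The genes were picked with these peaks known, so the share of 8 in 8 describes the choice and nothing is read from it. L3MBTL3 summits lay within 100 kb of 2 of the genes, MYC and CCNE2, against 4.53% of all genes. An RBPJ peak that overlapped an L3MBTL3 peak by at least 1 bp, termed shared, was near CCNE2 only among the 8, against 1.57% of all genes. The summit farthest inside the limit lay 82.1 kb from a TSS, and the nearest one outside it 117 kb.

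**Figure D1:**
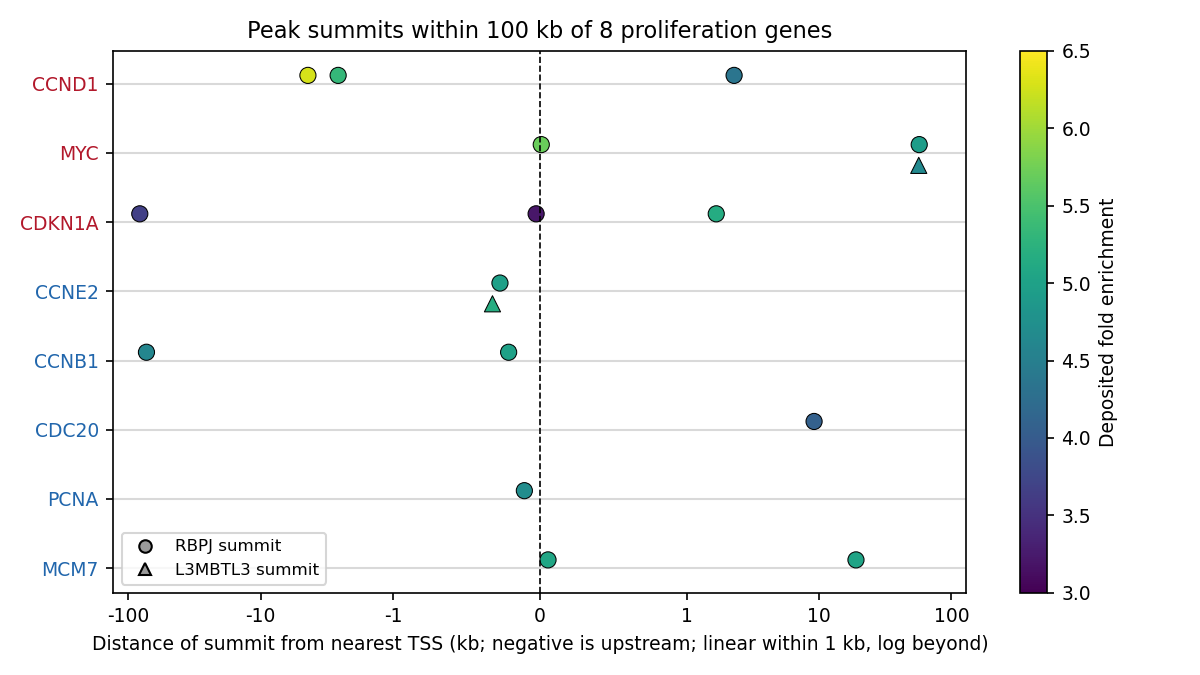
Distance of each RBPJ (circles) and L3MBTL3 (triangles) summit from the nearest TSS of 8 genes, in kb, linear within 1 kb and logarithmic beyond, with the deposited fold enrichment as colour; red names are Notch growth targets and blue names general cell cycle genes. Within 10 kb there are 6 RBPJ summits at the 3 red genes and 5 at the 5 blue genes, and the 2 triangles lie 56.6 kb from MYC and 323 bp from CCNE2.

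CCND1 had 3 RBPJ peaks, all within 5 kb of its TSS and none within 1 kb. The distal upstream peak (chr11:69451497-69451559, summit 4397 bp upstream, between genes) had a deposited fold enrichment of 6.27 at a -log10 q of 5.78. Fold enrichment is the signal at the summit over the local background of the peak caller, and q is the p value adjusted over the genome. The proximal upstream peak (chr11:69453293-69453403, 2598 bp upstream) had a fold of 5.33 and a -log10 q of 3.68. The intronic peak (chr11:69458231-69458298, 2275 bp downstream of a protein-coding TSS and 231 bp from the start of another CCND1 transcript) had a fold of 4.36 and a -log10 q of 1.85. The 3 peaks thus ran from strong to weak along the gene: the distal one exceeded 85.9% of the other RBPJ peaks in fold, the proximal one 60.8% and the intronic one 20.1%. At least 3 summits within 10 kb were found at 0.628% of genes. No other gene had a TSS nearer to these summits.

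The proximal peak of CCND1 was the single RBPJ peak of the 15 with a high-affinity word, CGTGGGAA or TGTGGGAA on either strand, within 100 bp of the summit. Its TGTGGGAA lay on the minus strand at 69453240 to 69453247, 82 bp from the summit and 45 bases outside the peak as deposited. The distal peak, the strongest of the 15 in fold, held neither this word nor the core TGGGAA, and its E-box and TEAD words were likewise outside the peak. CCND1 had no L3MBTL3 summit within 100 kb, and the nearest was 21453 kb away. Chromosome 11 held 4 of the 444 L3MBTL3 peaks, or 0.310 per 100 protein-coding genes against 2.25 over all chromosomes, whereas its RBPJ peaks numbered 228, or 17.6 per 100 genes against 14.8. Whether this chromosome-wide scarcity bears on the absence at CCND1 was not tested.

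MYC had 1 RBPJ peak at its start and a peak of each protein at a distance. The first (chr8:128748447-128748591) had its summit 9 bp downstream of the nearest of 13 annotated TSS and 806 bp downstream of the most upstream one, in sequence annotated as coding in some transcripts. Its fold was 5.70, above 72.8% of RBPJ peaks, at a -log10 q of 5.42. The window around it held the core TGGGAA 91 bp from the summit and the E2F word TTTCCCGC 69 bp on the other side. E2F factors drive genes of S-phase entry.

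The distal RBPJ peak of MYC (chr8:128807058-128807112, 57.1 kb downstream, fold 4.93, -log10 q 3.51) lay in an intron of PVT1, 128 bp from a TSS of that long noncoding RNA gene. The L3MBTL3 peak (chr8:128806583-128806659, fold 4.64, -log10 q 3.19) lay 149 bp from a PVT1 TSS. By position both were at PVT1 starts, although MYC is the nearest protein-coding gene. They did not overlap: 398 bp separated the peaks and 451 bp the summits. The L3MBTL3 peak was among the weaker of its list in fold, above 17.4% of the others.

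CDKN1A had 2 RBPJ peaks within 2 kb of a TSS and no L3MBTL3 summit within 100 kb, the nearest being 944 kb away. The peak at the start (chr6:36646384-36646531, summit 26 bp upstream of a TSS and inside an intron of longer transcripts) had a fold of 3.21 at a -log10 q of 2.61. The next one (chr6:36648092-36648414, 1667 bp downstream, in an intron) had a fold of 5.16 at a -log10 q of 8.02 and was the widest of the 15, at 323 bp. Fold and q ranked these peaks differently. The intronic peak exceeded 53.4% of RBPJ peaks in fold but 94.7% in -log10 q, and the start peak 0.923% in fold but 28.2% in -log10 q. The RBPJ core lay 8 bp from the intronic summit, and the repeat of g and t shown above was upstream of it, mostly within the peak, while the start peak held none of the words searched. Whether the repeat has a part in the peak was not tested.

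A further RBPJ peak 82.1 kb upstream (chr6:36562104-36562187, fold 3.66, -log10 q 2.70) belonged by position to SRSF3, which encodes a splicing factor, with its summit 13 bp from an SRSF3 TSS. Chromosome 6 held 327 RBPJ peaks, 31.8 per 100 genes, and their median fold was 4.66 against 5.08 over the list, at a median -log10 q of 3.68 against 3.51. On that chromosome 47.2% of genes had an RBPJ summit within 100 kb. The part of these chromosome-wide values in the low folds at CDKN1A was not tested.

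CCNE2 carried the only shared peak of the 8 genes, against 0.603% of all genes with one within 10 kb, and the peak lay between a CCNE2 start and that of another gene. RBPJ (chr8:95907715-95907797, fold 4.98, -log10 q 2.88) and L3MBTL3 (chr8:95907756-95907810, fold 5.19, -log10 q 2.81) overlapped by 42 bp with summits 51 bp apart. The RBPJ summit was 272 bp upstream of a CCNE2 TSS in an intron of longer CCNE2 transcripts, and 241 bp from a TSS of NDUFAF6, which encodes an assembly factor of mitochondrial complex I. The L3MBTL3 summit lay 323 bp from the CCNE2 TSS and 190 bp from that of NDUFAF6. Counting all annotated transcripts, a start of NDUFAF6 was 7 bp from the RBPJ summit and a different NDUFAF6 start 5 bp from the L3MBTL3 summit. The RBPJ core was 90 bp from the RBPJ summit and 39 bp from the L3MBTL3 summit. Both peaks were below the median of their lists in fold.

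Promoter peaks of CCNB1, PCNA and MCM7 were 56 to 96 bp wide, and all were at or below the list median of 5.08 in fold. At CCNB1 (chr5:68462747-68462802, 213 bp upstream) the fold was 5.01 and the -log10 q 2.54. Its summit fell in a noncoding exon of an unnamed long noncoding RNA gene, and the E-box of the sequence above lay inside the peak, 35 bp from the summit. At PCNA (chr20:5107334-5107412, 106 bp upstream) the fold was 4.70 and the -log10 q 2.24, with 3 CCAAT boxes and the E2F word within 100 bp of the summit. At MCM7 (chr7:99698363-99698458, 55 bp downstream, UTR) the fold was 5.08 and the -log10 q 3.00, with a CCAAT box 11 bp from the summit. These 3 summits had their own gene as the nearest protein-coding one. The CDC20 peak did not: it lay 9154 bp downstream of the TSS, past the end of CDC20 (chr1:43833837-43833936, fold 4.08, -log10 q 1.82), and 93 bp from a TSS of ELOVL1, which encodes a fatty acid elongase.

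More distant peaks near CCNB1 and MCM7 were at starts of other genes too. The one 73.1 kb upstream of CCNB1 (chr5:68389808-68389862, fold 4.60, -log10 q 2.76) was 7 bp from a TSS of SLC30A5, which encodes a zinc transporter. The one 19.0 kb downstream of an MCM7 TSS (chr7:99679331-99679396, fold 5.05, -log10 q 2.59) was 9 bp from a TSS of ZNF3, a zinc finger gene. None of CCNB1, CDC20, PCNA and MCM7 had an L3MBTL3 summit within 100 kb, the nearest lying 319 kb, 349 kb, 20732 kb and 40177 kb away in that order.

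Gene by gene, the strongest RBPJ peak was stronger at each of the 3 Notch growth targets than at any of the 5 general cell cycle genes, in a division made with these peaks known. Each of CCND1, MYC and CDKN1A had 1 peak within 10 kb at a -log10 q of at least 5, and none of the 5 general cell cycle genes did, against 2.65% of all genes. The strongest peak per gene within 10 kb ran from 5.16 to 6.27 in fold and from 5.42 to 8.02 in -log10 q at the 3 Notch growth targets, and from 4.08 to 5.08 and from 1.82 to 3.00 at the 5 general genes, so the groups did not overlap in either. The gap in fold is small: CDKN1A at 5.16 stands next to MCM7 at 5.08, and with no replicate library it is not known whether they differ. The lack of overlap holds for the genes chosen here only. In the lists below, RRM2, a DNA replication gene, had a fold of 9.31 at a -log10 q of 12.2, above all of them. Notch-linked CDK6, at 4.98 and 2.88, was within the ranges of the general genes. A -log10 q of at least 5 within 10 kb was reached at 2 of 71 listed cell cycle genes and at 1 of 7 Notch-linked regulators. Over all 2241 genes with an RBPJ summit within 10 kb, the -log10 q of the strongest peak exceeded that of 85.6% of genes at CCND1, 81.0% at MYC and 95.4% at CDKN1A, and of 29.4% at CCNE2, 20.8% at CCNB1, 3.93% at CDC20, 14.6% at PCNA and 32.4% at MCM7. In fold the divide was narrower. The shares in the same order were 85.5%, 70.5% and 48.1%, and 38.6%, 40.3%, 8.57%, 27.8% and 42.7%. The ranges hold for the strongest peak of a gene only. It was taken from 3, 1 and 2 peaks at CCND1, MYC and CDKN1A, and from 1 at each general gene. Within 1 kb of a TSS the ranges overlapped. There CCND1 had no peak, and those of MYC and CDKN1A had folds of 5.70 and 3.21, against 4.70 to 5.08 at 4 general genes. Their -log10 q was 5.42 and 2.61, against 2.24 to 3.00. Among the weaker peaks of the Notch growth targets within 10 kb, the proximal CCND1 peak (fold 5.33, -log10 q 3.68) was above the general genes in both values, the CCND1 intron peak was within both ranges, and the CDKN1A start peak was below them in fold and within them in -log10 q.

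**Figure D2:**
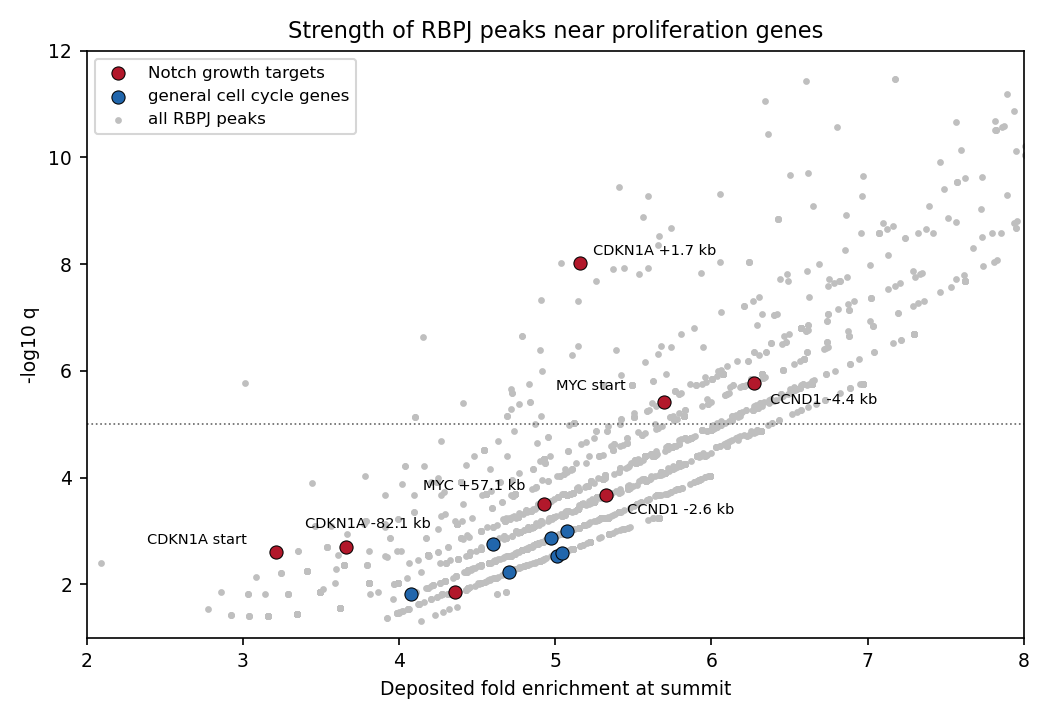
Deposited fold enrichment (horizontal axis) against -log10 q (vertical axis) of RBPJ peaks within 100 kb of Notch growth targets (red) and general cell cycle genes (blue), over all RBPJ peaks (grey; 76 stronger peaks are beyond the axes). The dotted line marks a -log10 q of 5, with 3 red points and 0 blue points above it; the CDKN1A intron peak stands out for its -log10 q of 8.02 at a fold of 5.16.

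Peaks near the Notch growth targets more often had that gene as the nearest protein-coding one than peaks near the general genes did, by counts too small to read further. Noncoding genes are left out of this. A PVT1 start was nearer to the distal MYC peak, and a start of the unnamed long noncoding RNA gene to the CCNB1 promoter peak. At the CDC20 peak a start of another unnamed long noncoding RNA gene, 13 bp from the summit, was nearer than that of ELOVL1. The nearest protein-coding TSS was the gene's own for 7 of 8 RBPJ peaks near the Notch growth targets and for 3 of 7 near the general genes. For the other 5 of the 15 peaks it was that of SRSF3, NDUFAF6, SLC30A5, ELOVL1 or ZNF3, 7 to 241 bp from the summit. Gene density differed along with this: 2, 0 and 3 other protein-coding genes had a TSS within 100 kb of CCND1, MYC and CDKN1A, against 3, 4, 8, 2 and 13 for CCNE2, CCNB1, CDC20, PCNA and MCM7. Its part in the difference was not tested. Both groups had genes without a promoter peak. Summits within 1 kb of a TSS were present at MYC and CDKN1A but not at CCND1, and at 4 of the 5 general genes, against 8.91% of all genes and 12.5% of those with a CpG-rich TSS.

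**Figure D3:**
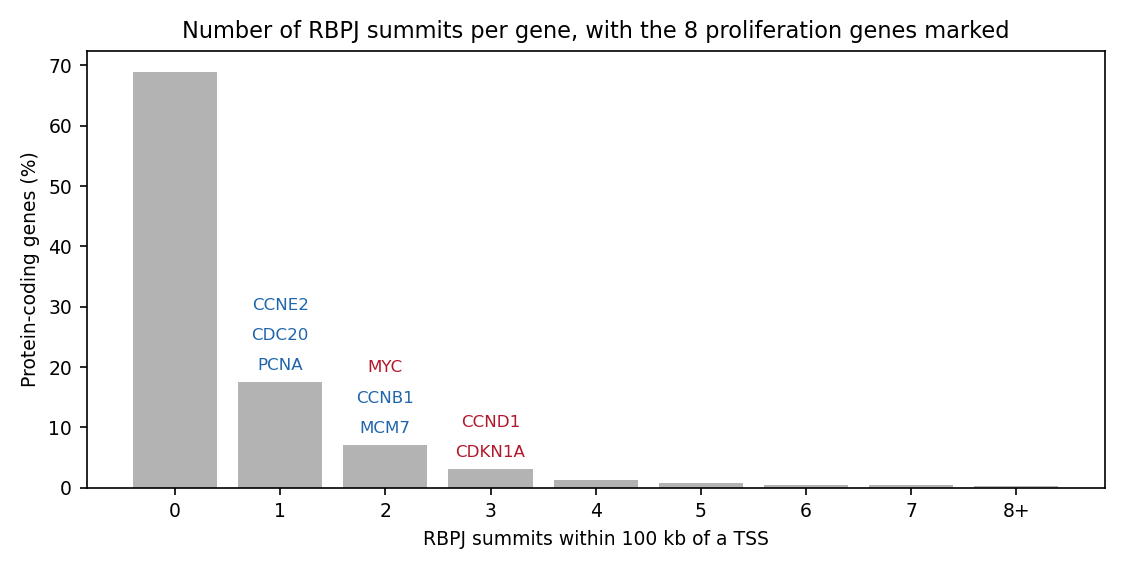
Percent of 19748 protein-coding genes (vertical axis) by their number of RBPJ summits within 100 kb of a TSS (horizontal axis), with the 8 genes written above the bar they belong to, Notch growth targets in red and general cell cycle genes in blue. CCND1 and CDKN1A are in the bar of 3 summits (3.05% of genes), MYC, CCNB1 and MCM7 in that of 2 (7.11%), and CCNE2, CDC20 and PCNA in that of 1 (17.5%).

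Sequence around the summits was rich in G and C, with 56.2 to 79.6% in the 15 windows, and words divided the peaks by gene group only in part. The RBPJ core was within 100 bp of the summit in 3 of 8 peaks near the Notch growth targets and in 3 of 7 near the general genes, in all 6 of 15 or 40.0%, against 29.5% of all RBPJ peaks (95% Wilson interval 27.9 to 31.2). The core lay inside the peak as deposited at MYC, CDKN1A and CDC20, and outside it at CCND1, CCNE2 and MCM7. High-affinity words, each of which contains the core, were in 1 of 15 or 6.67%, against 8.51% (7.55 to 9.58). The intervals belong to the shares over all RBPJ peaks. Counts among the 15 peaks have none and are too small to be read as different. The CCAAT box, bound by NF-Y at many cell cycle promoters, was in 2 of 8 peaks near the Notch growth targets and in 4 of 7 near the general genes, and in 19.5% of all RBPJ peaks (18.1 to 21.0). The 2 near the Notch growth targets were beyond 10 kb, at SRSF3 and PVT1, so no RBPJ peak within 10 kb of a Notch growth target had it within 100 bp of the summit. Peaks within 10 kb of CCNB1, CDC20, PCNA and MCM7 did, but that of CDC20 was likewise at the start of another gene, ELOVL1. Only at PCNA and MCM7 was a box inside the peak as deposited, and at CCNB1 and CDC20 it lay outside. E2F words, TTTCGCGC or TTTGGCGC or TTTCCCGC or TTTGCCGC, were at MYC and PCNA and in 2.90% of all RBPJ peaks (2.36 to 3.58). The E-box was at CCND1 and CCNB1 (6.87% of all), TEAD words at CCND1 and MCM7 (13.7%), the word TTTGAA of the cell cycle homology region at CCND1 (4.27%), and AP-1 words, TGACTCA on one strand and TGAGTCA on the other, at the ZNF3 peak near MCM7 (11.2%). Among these E2F, E-box, TEAD, TTTGAA and AP-1 words, only the CCNB1 E-box and the CCND1 TTTGAA lay inside the peak as deposited.

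Promoter sequence in itself, 250 bases before to 50 after any annotated TSS, held no high-affinity RBPJ word at any of the 8 genes, against 5.68% of all genes with one. A CCAAT box was present in the promoters of all but CCND1 (7 of 8), against 55.0% of genes, and an E2F word in those of CCND1, MYC, PCNA and MCM7 (4 of 8), against 7.06%. These shares are over all TSS of a gene, and MYC has 13 of them. Within 10 kb of the canonical TSS, high-affinity words numbered 3 at CCND1, 1 at MYC and 2 at CDKN1A, and 1 at CCNE2, 0 at CCNB1, 2 at CDC20, 0 at PCNA and 2 at MCM7, against a median of 1 over genes. Of these 11 words, 1 lay within 100 bp of an RBPJ summit, the CCND1 word described above, and the other 10 were 1663 to 17897 bp from the nearest summit. Over all genes 169 of 27909 such words, or 0.606%, were that close, with words near several genes counted for each. The 8 genes all have an RBPJ summit within 10 kb, which 11.3% of all genes do, so these shares are not read against each other. A missing match says only that these letters are not in the window.

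Further lists of cell cycle genes, without the 8 genes, had RBPJ peaks about as often as any gene. The general cell cycle genes above, picked with their peaks known, are left out. These lists were also chosen with earlier results known, so their share describes the listed genes only. Of 12 G1/S regulators 1 had an RBPJ summit within 10 kb, of 29 DNA replication genes 3, and of 30 mitotic genes 4, in all 8 of 71 or 11.3%, against 11.3% of all protein-coding genes. The median number of RBPJ summits within 100 kb was 0 for each of these lists and 0 over all genes. The strongest of these peaks was at RRM2, which encodes the small subunit of ribonucleotide reductase (chr2:10260331-10260649, 402 bp upstream, fold 9.31, -log10 q 12.2), and exceeded each of the 15 peaks above. E2F3, which encodes a transcription factor of S-phase entry, had a peak 233 bp upstream (fold 5.12, -log10 q 5.03), and these were the 2 of 71 genes, 2.82%, with a -log10 q of at least 5 within 10 kb, against 2.65%. POLD1 (DNA polymerase delta), GMNN (geminin, an inhibitor of replication licensing), FZR1 (an activator of the anaphase-promoting complex), ANLN, CDC25B (a CDK-activating phosphatase) and KIF11 (a mitotic kinesin) had folds of 3.81 to 5.79. L3MBTL3 summits were within 10 kb of 0 of the 71 genes, against 1.58% of all, and within 100 kb of 1.

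Of 7 regulators tied to Notch, 3 had an RBPJ summit within 10 kb and 1 an L3MBTL3 summit, against 11.3% and 1.58% of all genes. This list and that of CDK inhibitors below were also chosen with earlier results known, so their shares describe the listed genes only. CCND3, which encodes cyclin D3, had 3 RBPJ summits at its alternative starts and an L3MBTL3 peak. The RBPJ peak 166 bp from a TSS had a fold of 4.73 at a -log10 q of 5.59, and the L3MBTL3 peak (chr6:41909216-41909295) had a fold of 3.60 at 2.15 without overlapping an RBPJ peak. A second RBPJ peak with the same fold and q was nearer to TAF8, 12 bp from its TSS. CDK6 (fold 4.98, -log10 q 2.88) and CDKN1C (6.03, 4.57) had 1 RBPJ peak each, while CDK4, SKP2, IGF1R and CDKN1B had none within 10 kb. CCND3 was thus the 1 gene of the 7 with a -log10 q of at least 5 within 10 kb, against 2.65% of all genes. CCND3 is on chromosome 6, as are E2F3 and CDKN1A. That chromosome held 31.8 RBPJ and 5.54 L3MBTL3 peaks per 100 genes, against 14.8 and 2.25 over all chromosomes. Shares over all genes take no account of this, and its part in the peaks at CCND3, E2F3 and CDKN1A was not tested. Among 7 CDK inhibitor genes other than CDKN1A, 2 had an RBPJ summit within 10 kb, CDKN1C and CDKN2C, against the same 11.3%, and the CDKN2C peak (4.08) was nearer to FAF1, 143 bp from its TSS. CDKN1B and CDKN1C are in this list and in the Notch-linked one, so the CDKN1C peak is counted in both.

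**Figure D4:**
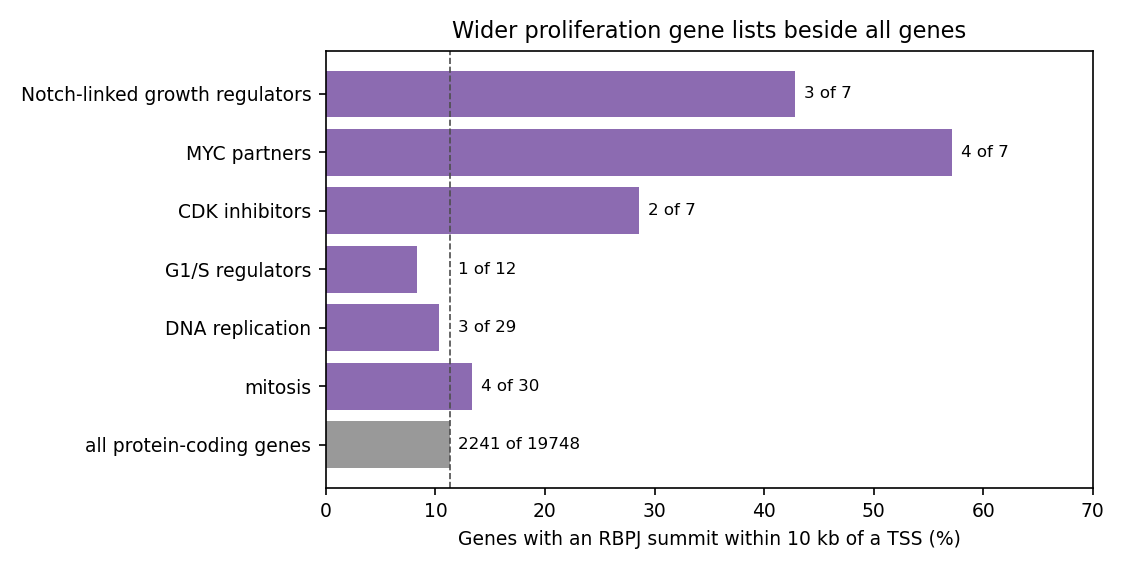
Percent of genes with an RBPJ summit within 10 kb of a TSS (bars from 0, with counts) for 6 lists of proliferation genes that leave out the 8 genes, and for all protein-coding genes (grey; dashed line at 11.3%). The 6 lists were chosen with earlier results of these data known. G1/S, DNA replication and mitosis genes are at 8.33%, 10.3% and 13.3%, and the lists of 7 genes each, CDK inhibitors, Notch-linked regulators and MYC partners, at 28.6%, 42.9% and 57.1%. CDKN1B and CDKN1C are in both the CDK inhibitor and the Notch-linked list.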

How the data were processed

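Peak lists of 1 RBPJ and 1 L3MBTL3 library of MDA-MB-231 cells were used. Per the labels' protocols, reads of 50 cycles were aligned to hg19 (BWA 0.7.15) after adaptor removal with Trimmomatic, and per the submitters' processing notes peaks were called with MACS2. Which version, threshold and control it ran with is not given in the sources used here. The deposited values are the fold enrichment (a ratio), the -log10 p and -log10 q, and a score, which is 10 times the -log10 q as a truncated whole number. Folds are coarse: 955 distinct values over 2926 RBPJ peaks and 263 over 444 L3MBTL3 peaks.

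Summits were placed by distance to the nearest of 78394 TSS of protein-coding transcripts (GENCODE 44 on GRCh37, the build of hg19), with Python 3.11.15, pandas 2.3.3 and pysam 0.24.0, tested on simulated data. Words were sought on both strands within 100 bp of summits. Positions are 1-based. With 1 library per antibody no test was made. Values stand beside those of all genes or peaks, with 95% Wilson intervals that cover counting error only. Named genes are the 8, the genes nearest to their peaks, list members with a summit within 10 kb (at most 8 per list, by fold), and the 3 genes most like each Notch growth target (some are not reported here). The 8 genes, their division by role and all lists were chosen with earlier results of these data known. Alternatives were other distances, thresholds, TSS sets, overlap rules and word windows.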

Additional observations from a re-analysis of the deposited data

How the results depend on the processing

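The 15 RBPJ summits near the 8 genes became 11 and 12 with limits of 10 and 50 kb, 10 when the gene had to be the nearest, and 15 with the most upstream TSS alone. Stricter peaks cut them further: a -log10 q of at least 5 left 3 summits at 3 genes, and a fold of at least the list median left 4 summits at 3 genes, the Notch growth targets in both cases. MCM7 missed that median of 5.08 by less than the printed digits show. The 2 L3MBTL3 summits, at 2 genes, fell to 1 at 1 gene with limits of 10 or 50 kb or with the gene as nearest, and to 0 at 0 genes with either stricter setting. The 1 shared peak was lost (0) with the gene as nearest and with either stricter setting, and became 2, with the PVT1 pair near MYC, when peaks within 1 kb counted as shared. The 1 RBPJ peak with a high-affinity word became 0 within 50 bp of the summit, inside the peak as deposited and at the stricter q, and 6 for the core word. These changes follow from how each setting is built. No paired analysis was possible because each antibody had 1 library, and the depth behind single peaks is unknown, so an absent L3MBTL3 peak is not shown to be absent binding.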

Other observations

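Of 7 genes encoding relatives, partners or antagonists of MYC, 4 had an RBPJ summit within 10 kb (11.3% of all genes do) and 2 an L3MBTL3 summit (1.58% do). The list was chosen with earlier results of these data known, so these shares describe the 7 genes only. MYCL, a relative of MYC, had a shared RBPJ peak 256 bp downstream of a TSS (chr1:40367253-40367354, fold 6.30, -log10 q 5.30) and 4 L3MBTL3 peaks with folds of 4.74 to 7.25. MXI1, whose product competes with MYC for its partner MAX, had a shared RBPJ peak at its start (chr10:111986325-111986397, fold 5.64) and 3 L3MBTL3 peaks with folds of 5.07 to 5.72. MNT and MXD1, further antagonists of MYC, had RBPJ peaks with folds of up to 5.86 and 5.31 and no L3MBTL3 peak within 10 kb. MAX, MYCN and ZBTB17 had no peak of either list within 10 kb. MYCL and MXI1 each thus had a shared peak at the promoter, where the MYC start had an RBPJ peak alone.

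Genes were ranked by how alike their numbers of RBPJ and L3MBTL3 summits were to those of a Notch growth target, in distance ranges of 0 to 1, 1 to 10, 10 to 50 and 50 to 100 kb. For CCND1 the closest was MYEOV, 394 kb away on chromosome 11, with the same profile of 3 RBPJ summits between 1 and 10 kb and a highest fold of 6.69. In all 8 genes had the profile of MYC, among them PXK, TMEM141 and SLC30A1, and 8 that of CDKN1A, among them PLEKHH3, RARA and STK4. These are descriptions of 2 libraries.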
